A study of Mus musculus with 2 samples.

Results

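The imprinted growth genes described here are Plagl1, Igf2, H19, Ndn, Grb10, Peg3, Mest, Dlk1, Meg3 and Sgce, measured in 2 single cells of the mouse eye. A probe set was taken when its only gene symbol in the array's annotation was one of these 10 names. That gave 37 probe sets for 9 of the 10 genes, out of 45101 probe sets and 18194 named genes. H19 had no probe set of its own, because the 1 that names it also names Mir675, a microRNA gene that lies inside H19. The genes were chosen with the signals of these same cells in view, so the counts below describe these cells and no test was made on them.

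Both cells came from dissociated retinas of CD1 mice, one on day 12.5 of gestation (E12.5, here the embryonic cell) and the other on postnatal day 0, the day of birth (P0, here the newborn cell). CD1 is an outbred albino stock, and the labels name no mutation, transgene or drug for either cell. Retinas were dissociated with papain, the cells were picked by capillary, and cDNA primed at the poly(A) tail was amplified by 35 cycles of PCR before hybridisation to an Affymetrix mouse array. Both cells were assigned by the submitters to the developing ciliary body, the rim of the optic cup, from the genes they expressed. With 1 cell per age there was no replicate, so each difference is between these 2 cells with neither a standard error nor a p-value. Precision is limited by the number of arrays.

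Genomic imprinting leaves a gene active mainly on the copy inherited from one parent, under marks of DNA methylation set in the germ line. Many imprinted genes act on fetal growth: paternally expressed ones such as Igf2 tend to promote it, and maternally expressed ones such as Grb10 tend to restrain it. Several of those described here are expressed together in embryonic tissues and decline after birth, and the zinc finger factor Plagl1 is known to act on others of them. In the mouse retina, Plagl1 is known for limiting cell number. The array does not separate the parental copies, so imprinting itself was not measured.

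The signals are MAS5 intensities on a linear scale. A probe set counted as above background when its signal exceeded the 99th percentile of 176 probe sets for olfactory receptors, keratin-associated proteins and similar families not known to act in the eye. This limit was 258 in the embryonic cell and 349 in the newborn cell. For each gene 1 probe set was used, that whose log2 signal averaged over both cells was highest, which need not be the brightest in either cell. A gene was called higher in a cell when it was above the limit there and the ratio was 4 or more, with signals under a limit first raised to it. Folds against a cell that lay under its limit are lower bounds, written "at least". Over all named genes, 1328 were called higher in the embryonic cell and 1681 in the newborn cell. The other cell was under its limit in 1092 of the embryonic calls and in 1328 of the newborn calls. These folds bound the ratio of signals only. A transcript lost during amplification in 1 cell would read the same way, and this was not tested. The hybridisation spike-ins, 18 probe sets, were on average 0.87 higher in the newborn cell on the log2 scale, and scaling the arrays to them lowered every P0 signal by that amount and changed the calls to 2115 and 1048.

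The labelled origin was checked against marker lists. Of 13 ciliary margin genes, 9 were above background in the embryonic cell, 7 in the newborn cell and 6 in both, among them the zinc finger factor genes Zic1 and Zic2, while Msx1, Msx2 and Bmp4 were above it in neither. Of 11 retinal progenitor genes, 10 and 9 were above background, where 30.3% and 28.4% of all named genes were. The levels differed between the cells: 5 ciliary margin genes were called higher in the embryonic cell and 1 in the newborn cell, and 5 and 2 of the progenitor genes were. Over all named genes these shares were 7.3% and 9.24%. Among the ciliary margin genes, Wfdc1 was 25.8-fold and Cdon 10.7-fold higher in the embryonic cell. Mecom was at least 16.4-fold, Gja1 at least 7.22-fold and Otx1 at least 4.51-fold higher there. Bmp7 was at least 7.38-fold higher in the newborn cell. Among the progenitor genes, Sfrp2 was 38.4-fold and Pax6 15.4-fold higher in the embryonic cell, and Ccnd1 at least 32.0-fold and Fgf15 at least 25.9-fold, while Lhx2 was 7.28-fold and Nr2e1 at least 13.0-fold higher in the newborn cell. The part of such differences in those described below was not tested. Because the cells were assigned by their expression, these counts are not independent of the label. Tubb3 and Gap43, genes of young neurons, were above background in the embryonic cell only, the only 2 of 7 neuronal genes. Of 8 pigment epithelium genes, 1 was above background in each cell. Trpm1 read 6301 in the embryonic cell and 48.0 in the newborn cell, at least 18.1-fold higher in the embryonic cell, and a second probe set gave the same call. Rlbp1 read 31.1 and 16125, at least 62.5-fold higher in the newborn cell.

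The start regions of 3 of these genes are shown because they hold the hexamer TGCCGC, or GCGGCA on the other strand, which is known as the core of the site bound by Zfp57, a protein that protects imprints. RefSeq (build GRCm38.p6) gave windows of 250 bases before the annotated start for 8 of the genes, 15 windows in all, and none matched for H19 or Sgce. The windows below are from chr10:13090582-13090831, chr6:30737800-30738049 and chr12:109540746-109540995, all on the plus strand, with the hexamer in capitals.
Plagl1: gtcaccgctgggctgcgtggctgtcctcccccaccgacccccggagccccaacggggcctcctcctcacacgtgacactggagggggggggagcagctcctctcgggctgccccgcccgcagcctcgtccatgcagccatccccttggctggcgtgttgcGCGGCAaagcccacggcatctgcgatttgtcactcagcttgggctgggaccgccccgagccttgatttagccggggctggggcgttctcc
Mest: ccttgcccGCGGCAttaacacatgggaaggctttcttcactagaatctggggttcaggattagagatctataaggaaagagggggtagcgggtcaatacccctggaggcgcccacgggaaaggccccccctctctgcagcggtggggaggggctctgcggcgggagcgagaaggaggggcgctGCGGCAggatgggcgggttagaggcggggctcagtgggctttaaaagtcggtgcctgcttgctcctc
Meg3: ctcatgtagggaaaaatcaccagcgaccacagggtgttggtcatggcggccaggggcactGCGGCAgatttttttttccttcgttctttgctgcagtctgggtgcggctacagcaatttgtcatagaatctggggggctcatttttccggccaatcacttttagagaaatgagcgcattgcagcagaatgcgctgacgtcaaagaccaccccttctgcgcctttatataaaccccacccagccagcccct
The hexamer was in 4 of the 15 windows, of which 2 are for Mest, start 3 bases apart and are nearly the same sequence. It was in 8.68% of all 32851 windows of this length. A match is a description of these letters, and binding was not measured. The number of CpG pairs, the sites of DNA methylation, ran from 0 in a second window of Meg3 to 40 in a window of Grb10, against a median of 6 over all windows. The Plagl1 window held 19, the Mest window 14 and the Meg3 window 10. The 4 windows of Igf2 held 1, 6, 10 and 22, the window of Peg3 held 8, that of Dlk1 8 and that of Ndn 5.

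Most of the measured genes were above background in both cells. Of 9 genes, 7 exceeded the limit in the embryonic cell (30.3% of all named genes did), 7 in the newborn cell (28.4%) and 6 in both (18.7%). Igf2, Ndn, Grb10, Peg3, Mest and Meg3 made up the shared group. Plagl1 was above background in the embryonic cell only, Sgce in the newborn cell only, and Dlk1, 1 gene of the 9, in neither (60% of all named genes were in neither). A single gene, Plagl1, was called higher in the embryonic cell (7.3% of all named genes were), and a single gene, Sgce, in the newborn cell (9.24%). The genes had been chosen with these signals known, so nothing is read from the distance between these shares.

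**Figure D1:**
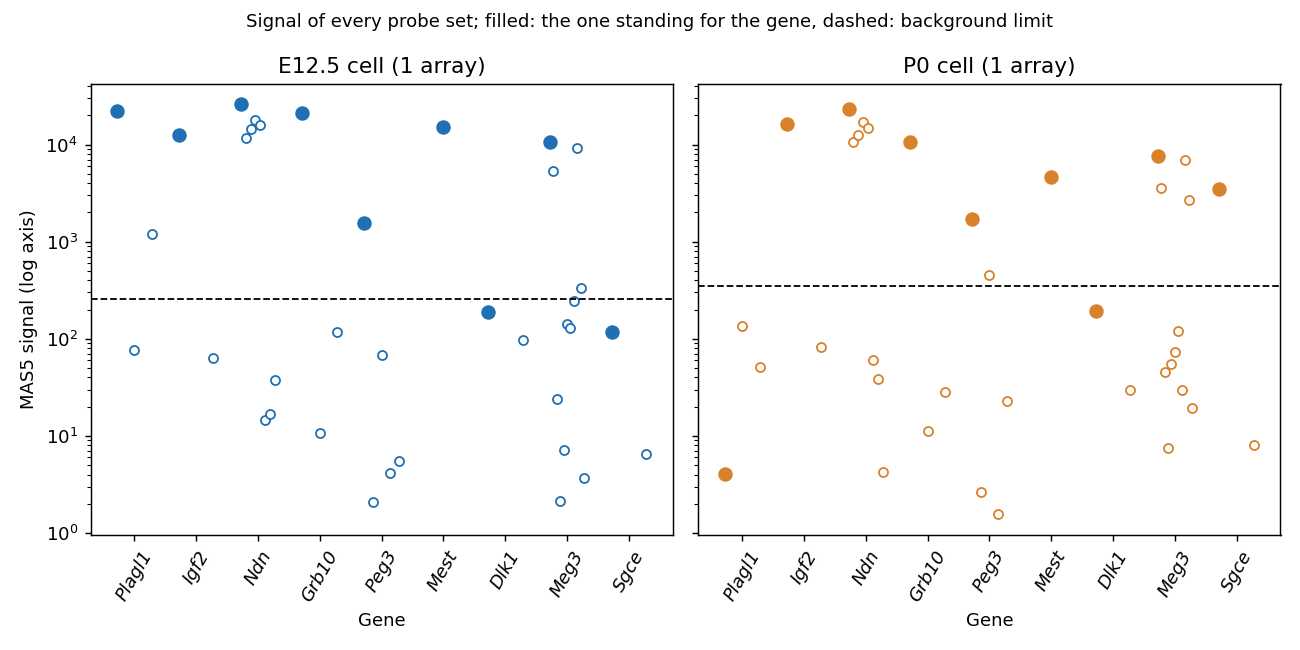
MAS5 signal (log axis) of all 37 probe sets of 9 imprinted growth genes in the embryonic cell (left) and the newborn cell (right), each point 1 probe set on 1 array, filled for the probe set that stands for the gene, with the background limit of 258 or 349 dashed. The filled points of 6 genes lie above the line in both panels, that of Plagl1 only on the left and that of Sgce only on the right.

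The transcription factor gene Plagl1 had far more signal in the embryonic cell by 1 of its 3 probe sets. The probe set that stands for it had a signal of 22282 in the embryonic cell and 4.04 in the newborn cell, so that it was at least 63.8-fold higher in the embryonic cell. A second probe set read 1197 and 51.2, again above background in the embryonic cell only and at least 3.43-fold higher there, which is under the threshold of 4. The third read 77.1 and 135.6, below background in both cells. The first of these is of the type whose probes may also match other transcripts (suffix _x_at). Without probe sets of that type and the related _s_at type, the lower bound for Plagl1 became 3.43-fold and the call was lost.

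Sgce went the other way. This paternally expressed gene encodes epsilon-sarcoglycan, a membrane protein of the dystrophin-associated complex. Its signal was 118.6 in the embryonic cell and 3505 in the newborn cell, at least 13.6-fold higher in the newborn cell. The second probe set read 6.45 and 8.11, under the limit in both.

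Igf2 encodes insulin-like growth factor 2, the fetal growth factor. Its signal was 12635 in the embryonic cell and 16332 in the newborn cell, a log2 ratio of P0 over E12.5 of 0.37. The difference is smaller than the SD of 0.83 between the log2 ratios of probe sets of the same gene, taken over 975 genes with several probe sets above both limits. Probe sets of a gene can differ in array error, transcript isoform and distance from the poly(A) end, which were not separated, and the SD holds neither the spread between cells nor the loss of a transcript during amplification. The second probe set of Igf2 was under the limit in both cells, at 64.2 and 81.5. Scaled to the spike-ins, the ratio of Igf2 turned to -0.50. H19, a maternally expressed non-coding RNA gene, is the neighbour of Igf2 and shares enhancers with it. The probe set named for both H19 and Mir675 read 27581 and 31177, above the limit in both cells, and is not counted with the other genes.

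The adaptor gene Grb10 and the hydrolase gene Mest had higher signals in the embryonic cell. Grb10, which binds the insulin and IGF receptors and dampens their signal, read 20975 in the embryonic cell and 10686 in the newborn cell, a log2 ratio of -0.97. Its other 2 probe sets were under the limits, at 118.9 and 28.6 and at 10.8 and 11.3. Mest, which encodes a protein of the alpha/beta hydrolase fold, had a single probe set with signals of 15248 and 4627, a log2 ratio of -1.72 or 3.30-fold. Neither difference reached the threshold of 4. For Grb10 the mean over its 3 probe sets gave a ratio of 0.22. There the newborn mean lay under its limit and was raised to 349, so this sign comes from the limit and shows no reversal. With spike-in scaling Mest reached -2.59 and would be called higher in the embryonic cell.

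In the signals as deposited, Ndn and Peg3 hardly differed between the cells. Ndn encodes necdin, a growth suppressor of the MAGE family in postmitotic neurons, and Peg3 a zinc finger protein. The brightest probe set of Ndn read 26112 in the embryonic cell and 23200 in the newborn cell. In all, 5 of the 8 Ndn probe sets were above background in both cells, and their log2 ratios lay between -0.18 and -0.10 with an SD of 0.04. The other 3 were under the limit in both, at or below 60.9. Peg3 read 1572 and 1699, a log2 ratio of 0.11. One further probe set of Peg3 was above the limit in the newborn cell only, at 450.7 against 68.7, and 3 were under both limits. The signs of both genes depend on the scaling: under quantile normalisation the ratio was 0.35 for Ndn and -0.02 for Peg3, and with spike-in scaling it was -1.04 and -0.75.

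Dlk1 and Meg3 are neighbours, the first expressed from the paternal and the second from the maternal copy. Dlk1, which encodes a membrane protein related to the Notch ligands, was under the limit in both cells, at 189.8 and 192.9, and its second probe set read 96.7 and 29.7. It was not detectable above this limit, which does not show that it was absent. With the limit at the 95th percentile (112 in the embryonic cell and 90.9 in the newborn cell) the brighter probe set would be above background in both. Meg3, a long non-coding RNA gene, was above background in both cells by 4 of its 11 probe sets. Its brightest read 10713 and 7565, and those next to it 9313 and 6937, and 5344 and 3588, with log2 ratios of -0.50, -0.42 and -0.57. The remaining 1 of the 4 went the other way, at 330.5 in the embryonic cell and 2666 in the newborn cell, 8.07-fold higher in the newborn cell. The 4 ratios had an SD of 1.76. The probe sets of Meg3 thus did not give a single direction.

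Across the 6 shared genes the size of the log2 ratio had a median of 0.44, or 1.35-fold. Over all 3395 genes above background in both cells that median was 0.91, or 1.87-fold. The 2 medians were not matched for signal. All of the 6 but Peg3 read 4627 or more in both cells, where the 3395 needed only to exceed 258 and 349. The 6 were also chosen with these signals in view. The 6 genes had a median log2 ratio of -0.34 and all shared genes one of 0.00. A difference under 2-fold was seen for 5 of the 6, Mest being the other, and for 1855 of the 3395 (54.6%). These values rest on the scaling: with the arrays scaled to the spike-ins, 2 of the 6 genes and 1455 of the 3395 (42.9%) differed by under 2-fold, and the median size became 1.20 for the 6 and 1.18 for all shared genes. As deposited, Peg3 and Ndn lay closest to no difference, with 7.30% and 10.9% of shared genes differing by no more than they did, against 76.6% for Mest.

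**Figure D2:**
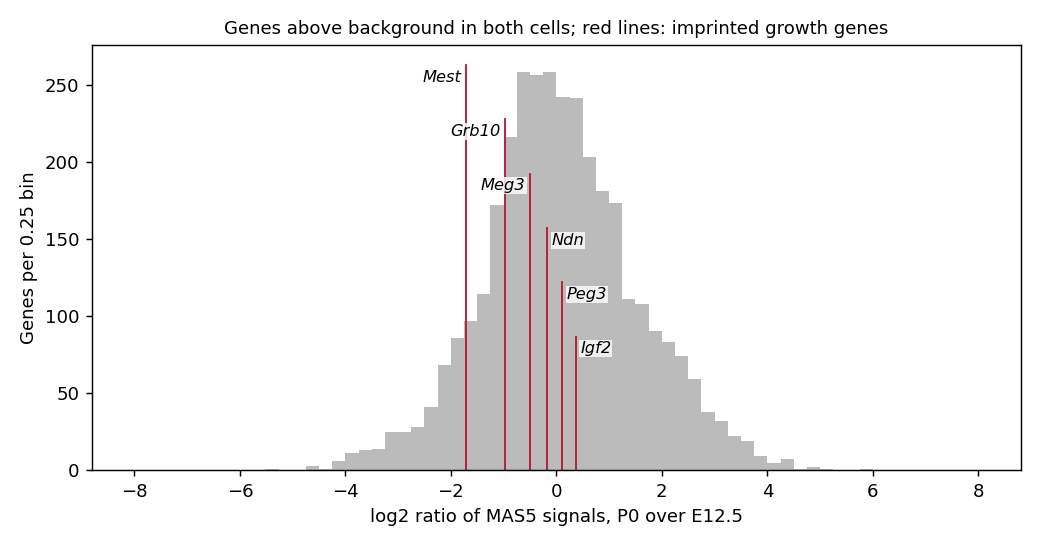
Histogram of the log2 ratio of MAS5 signals, P0 over E12.5, for the 3395 genes above background in both cells (bins of 0.25; 1 array per cell), with red lines at the 6 imprinted growth genes in it. The lines run from Mest at -1.72 to Igf2 at 0.37, inside the bulk of the histogram; line height has no meaning.

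Many probe sets of these genes were under the limits although another of the same gene was above. Of the 37 probe sets, 15 were above the limit in the embryonic cell, 15 in the newborn cell, 13 in both and 20 in neither. All 7 genes with several probe sets and at least 1 above a limit also had at least 1 below both limits. Over all named genes this held for 3785 of 5054 (74.9%).

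The genes next to them on the chromosome, by the RefSeq order and among genes with a probe set, were mixed. Of 16 such neighbours that are not themselves described above, 4 were above background in both cells, 2 in the embryonic cell only, 3 in the newborn cell only and 7 in neither. Of all named genes, 18.7% were above it in both and 60% in neither. In the embryonic cell 30.3% were above it and in the newborn cell 28.4%, those above it in both included. Among the neighbours only Igf2os and A330076H08Rik were called, both toward the newborn cell. Of all named genes, 9.24% were called that way and 7.3% toward the embryonic cell. Peg10, an imprinted gene derived from a retrotransposon and paired with Sgce at a shared start region, was above background in the newborn cell only as Sgce was (42.1 and 599), at least 2.32-fold higher there and so not called. Casd1, on the other side of Sgce, read 3239 and 3536. Igf2os, the antisense transcript of Igf2, was above background in the newborn cell only (78.7 and 1115), at least 4.32-fold higher. The labelled PCR product holds both strands, so a transcript and an overlapping antisense one cannot be told apart by this signal. A330076H08Rik, next to Ndn, was likewise above it in the newborn cell only (7.36 and 2489), at least 9.64-fold higher. On the other side of Ndn, its paternally expressed relative Magel2 was above the limit in the embryonic cell only (363 and 10.2), too close to the limit for a fold. LOC102631979, next to Grb10, was another above it in the embryonic cell only, at 478 and 14.2, also with no call. Sf3b5, a splicing factor gene beside Plagl1, read 10431 and 9566. Mrpl23, the mitochondrial ribosomal gene beside H19 (6217 and 4011), and Wdr25 beside Dlk1 (426 and 629) were also above background in both. Zim1 and Usp29 beside Peg3, Copg2 and Cep41 beside Mest, Rian beside Meg3, Cobl beside Grb10 and Zc2hc1b beside Plagl1 were above background in neither.

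Other imprinted genes were above background about as often as all named genes. Of 37 with a probe set, 10 were above it in the embryonic cell, 13 in the newborn cell and 8 in both. Of all named genes, 30.3%, 28.4% and 18.7% were. Calls numbered 1 toward the embryonic cell and 4 toward the newborn cell, beside 7.3% and 9.24% of all named genes. The 1 was Cdkn1c, a maternally expressed cyclin-dependent kinase inhibitor gene, at 25479 in the embryonic cell and 2969 in the newborn cell, 8.58-fold higher in the embryonic cell. Higher in the newborn cell were the phosphatase gene Inpp5f (24.1 and 4557, at least 17.7-fold, and a second probe set gave the same call), Zdbf2 (5.20 and 1446, at least 5.60-fold), Igf2r (166 and 1373, at least 5.32-fold) and Impact (18.8 and 1180, at least 4.57-fold). Above background in both without a call were the proteolipid gene Nnat (8306 and 28741, a log2 ratio of 1.79), Snrpn (339 and 457), Kcnq1ot1 (2912 and 1792), Gnas (15342 and 19217), the ubiquitin ligase gene Ube3a (7332 and 4873), Ppp1r9a (6405 and 2886) and Commd1 (2748 and 1261). The choice of probe set decides some of these: second probe sets of Commd1 (2925 and 592, 4.94-fold) and Ube3a (1539 and 29.3, at least 4.41-fold) passed 4-fold toward the embryonic cell. So did a second of Kcnq1ot1 (5103 and 150.4, at least 14.6-fold), and a second of Ppp1r9a passed it toward the newborn cell (32.6 and 2337, at least 9.06-fold). The 9 paternally expressed genes above background in at least 1 cell had a median log2 ratio of 1.22 and the 6 maternally expressed ones a median of -0.86. Over the 7270 named genes above background in at least 1 cell it was 0.02. Only 3 of the 9 and 5 of the 6 were above background in both cells, and the other ratios are bounds. The median of 1.22 is the ratio of Peg10 and so is itself set by the limit. The medians also rest on the probe set chosen for each gene, and spike-in scaling would lower each P0 signal by 0.87. The difference between the 2 groups was not tested.

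Genes that act on imprints or on DNA methylation were above background more often in the embryonic cell. The counts were 14 of 18 there, 8 in the newborn cell and 8 in both, beside 30.3%, 28.4% and 18.7% of all named genes. Of these genes, 4 were called higher in the embryonic cell and 0 in the newborn cell, beside 7.3% and 9.24% of all named genes. The 4 were the Polycomb gene Eed (3624 and 6.64, at least 10.4-fold), the hemimethylated-DNA reader gene Uhrf1 (2831 and 7.52, at least 8.11-fold), the DNA methyltransferase gene Dnmt3b (2518 and 125, at least 7.21-fold) and the silencing gene Smchd1 (2477 and 32.5, at least 7.10-fold). Second probe sets of Uhrf1 and Dnmt3b were above background in the embryonic cell only and did not reach 4-fold. Dnmt1, the maintenance methyltransferase gene, read 395 and 854, with a second probe set at 408 and 354. Dnmt3a read 565 and 1467, but a second probe set of it read 284 and 2665 and passed the threshold, 9.37-fold higher in the newborn cell. A probe set of Tet1 that does not stand for the gene was above the limit in the embryonic cell, at 535 against 2.00. The imprint-protecting Zfp57 read 656 and 365, and its partner gene Trim28 10269 and 4642. Ctcf, the insulator factor gene that acts between Igf2 and H19, read 344 and 671. Ehmt2 (2078 and 1691), Setdb1 (4211 and 1859) and Tet2 (1465 and 461) were also above background in both cells with no call. The median log2 ratio of the 14 genes was -1.16.

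Partners of Igf2 in signalling differed in both directions. Of 19 genes with a probe set, 8 were above background in the embryonic cell, 9 in the newborn cell and 5 in both, beside 30.3%, 28.4% and 18.7% of all named genes. Calls numbered 2 toward the embryonic cell and 4 toward the newborn cell, beside 7.3% and 9.24% of all named genes. The RNA-binding protein genes Igf2bp1 (5634 and 71.0, at least 16.1-fold) and Igf2bp3 (2781 and 73.6, at least 7.97-fold), whose products bind Igf2 mRNA, were higher in the embryonic cell. All 3 probe sets of Igf2bp1 and all 5 of Igf2bp3 that were above a limit were above it in the embryonic cell only. The insulin receptor gene Insr (1.60 and 5644, at least 21.9-fold), the IGF receptor gene Igf1r (245 and 4329, at least 16.8-fold), Igf2r, which clears Igf2, and the kinase subunit gene Pik3r1 (111 and 1086, at least 4.21-fold) were higher in the newborn cell. For Igf1r a second probe set gave the opposite call, with 1426 and 9.34. The binding protein genes Igfbp2 (5015 and 11226), Igfbp4 (7999 and 17957) and Igfbp5 (7518 and 19257), the docking protein gene Irs1 (3167 and 1474) and the kinase gene Akt1 (7265 and 1907) were above background in both with no call. Of the further probe sets of Igfbp4, 1 passed 4-fold toward the newborn cell (3162 and 13966, 4.42-fold).

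**Figure D3:**
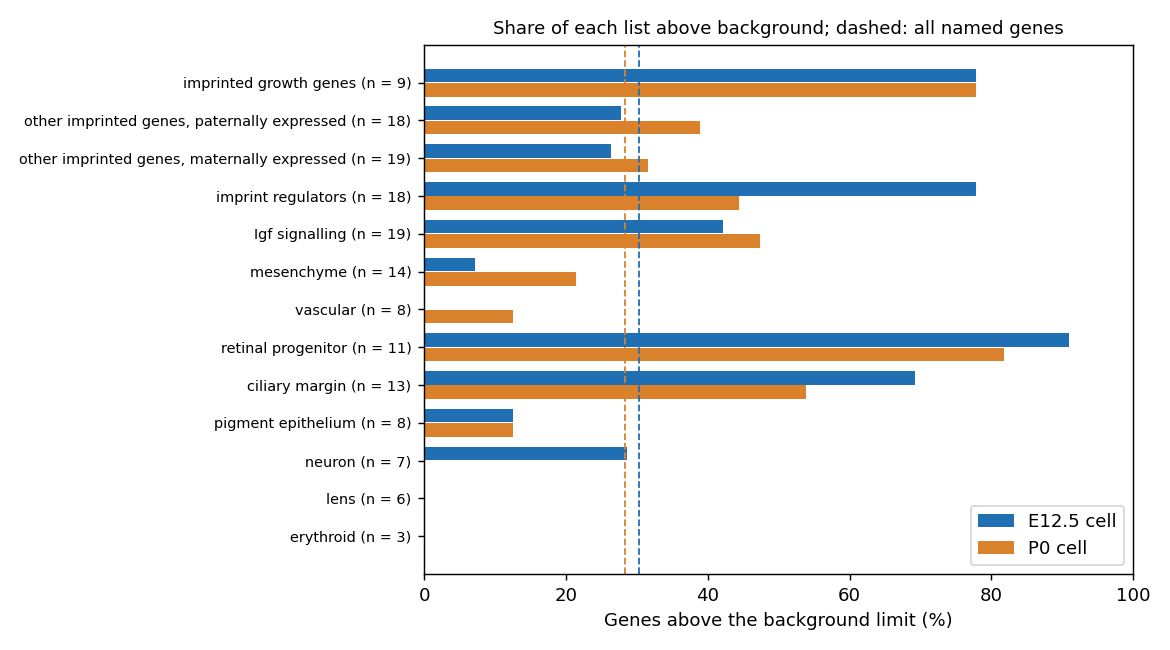
Percent of the genes of each list above the background limit in the embryonic cell (blue) and the newborn cell (orange), with n the genes with a probe set and dashed lines at 30.3% and 28.4% for all named genes. Imprinted growth genes (7 of 9 in each cell) and imprint regulators (14 of 18 and 8 of 18) lie above the dashed lines, and other imprinted genes lie near them. The retinal progenitor (10 of 11 and 9 of 11), ciliary margin (9 of 13 and 7 of 13) and Igf signalling (8 of 19 and 9 of 19) lists also lie above them.

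Igf2, H19, Dlk1 and Meg3 are also expressed in embryonic mesenchyme, so markers of that tissue were read beside them. Of 14 mesenchymal genes with a probe set, the embryonic cell had 1 above the limit, Vim, and the newborn cell had 3. These were Vim (29725 and 27525), the collagen gene Col1a2 (2653 in the newborn cell and under the limit in the other) and the receptor gene Pdgfra (63.0 and 3088). Of all named genes, 30.3% and 28.4% were above the limits. Calls numbered 0 toward the embryonic cell and 2 toward the newborn cell, beside 7.3% and 9.24% of all named genes. The 2 were Col1a2 and Pdgfra, and a second probe set of Pdgfra gave the same call (2.41 and 8978). The summed signal of the list was 30721 and 33996, most of it from Vim, which retinal progenitors also express. Col1a1, Col3a1, Twist1, Foxc1 and Foxc2 were above background in neither cell. No vascular or erythroid gene was called. Of 8 vascular genes, 0 and 1 were above background (summed signal 454 and 1377), and of 3 erythroid genes (Hba-a1, Hbb-y and Alas2) 0 in both. Outside that list, the probe set of the alpha-globin gene Hba-a2 read 30629 and 31957, above the limit in both cells, while those of Hba-x, Hbb-b2 and Hbb-bh1 were under it. Hba-a2 was looked up after its values were seen, and it is a near-identical copy of Hba-a1. Their part in the results was not tested.

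**Figure D4:**
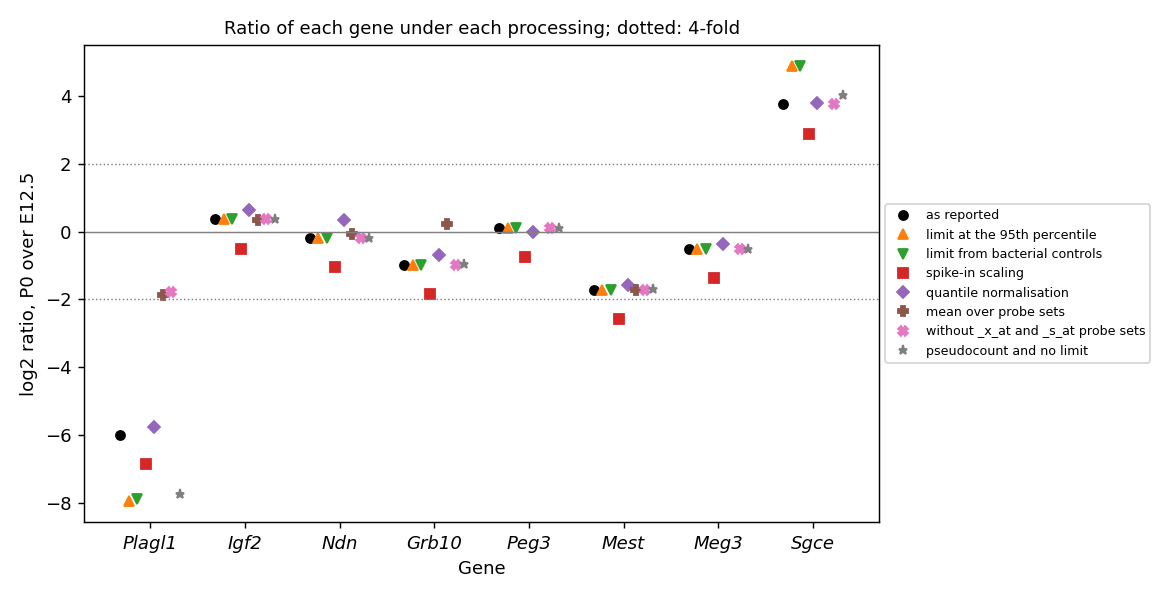
Log2 ratio of P0 over E12.5 for 8 genes under the processing reported and 7 alternatives, each point 1 value from the 2 arrays and dotted lines at 4-fold. Plagl1 stays below 0 and Sgce above 0 under every setting drawn. The mean over probe sets leaves Sgce, Meg3 and Peg3 under both limits and so undrawn. Igf2, Ndn and Peg3 change sign under at least 1 setting. Grb10 does so only with the mean over probe sets, where its newborn value was raised to the limit.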

How the data were processed

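Each of the 2 cells had 1 array of 45101 probe sets. The deposited values are linear signal intensities that the authors obtained with MAS5, per the submitters' processing notes; its version is not given in the sources used here. The mean signal without 2% at each end was 500.0 in both arrays. Scanner files and detection calls were not used here, so read depth is not defined and no interval is given. Of the probe sets, 34958 carried 1 gene symbol in GEO's annotation of the array, 932 carried several, and for 9211 it gave none; 34754 symbols were updated by gene identifier from RefSeq (GRCm38.p6) and 204 were kept. Background limits, the 4-fold rule and the probe set of highest mean log2 signal per gene were applied with Python 3.11.15, numpy 2.4.6 and pandas 2.3.3. The scoring was tested on simulated data. Alternatives were other limits, scalings, probe set rules, a pseudocount of 100 and a 2-fold threshold. Genes named were the 10 chosen, their chromosomal neighbours, and members of the lists that were called or above background in both cells; others are named as below the limit or as examples. The genes and lists were chosen with earlier results of these data known.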

Additional observations from a re-analysis of the deposited data

How the results depend on the processing

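The count of these genes above background in the embryonic cell stayed between 5 and 9 under the alternatives tried, against 7. In the newborn cell it was 7 or 8, except with the mean over probe sets, which gave 3. The count called higher in the embryonic cell, 1, became 0 with the mean over probe sets and 0 without _x_at and _s_at probe sets, since Plagl1 was lost in both, and 2 with spike-in scaling and 2 with a 2-fold threshold, Mest being added in both. The count called higher in the newborn cell, 1, became 0 with the mean over probe sets, where Sgce was under both limits. The median log2 ratio was -1.20 with spike-in scaling, against -0.34. Plagl1 ranged from -7.94 (limit at the 95th percentile) to -1.78, and Sgce from 2.90 to 4.89. Over all named genes, 1328 and 1681 calls became 2115 and 1048 with spike-in scaling, 700 and 863 with the mean over probe sets, 2012 and 2002 with the limit at the 95th percentile, 2004 and 2006 with that from bacterial controls, and 2280 and 2477 at 2-fold. Without a limit no count above background exists. No paired analysis was possible because each age has 1 cell and the labels share no replicate number. Signals near the limits, such as those of Dlk1, cannot be told from background.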
